A study of Mus musculus with 16 samples.

Results

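Gm43049, Gm32754, 4930590L14Rik, 1700030L20Rik and Unc5c are 5 genes of mouse chromosome 3 whose nuclear RNA separated Tau+ from Tau- mice in hippocampal single-nucleus RNA sequencing. They are 5 of the 32285 genes in the deposited matrices, and they were chosen by their measured values: earlier differences between Tau+ and Tau- mice in these same libraries picked them. Every difference between Tau+ and Tau- mice given for them is therefore a description, with no test. Gm43049, Gm32754, 4930590L14Rik and 1700030L20Rik were near 0 in Tau- mice and present in Tau+ mice, and Unc5c was lower in neurons of Tau+ mice.

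The 16 libraries came from the hippocampus of 16 female mice aged 9 months, 4 in each of 4 groups. The groups were Ch25h+/+ without tau (Tau-), Ch25h+/+ with tau (Tau+), mice labelled Ch25h-/- without tau, and mice labelled Ch25h-/- with tau. Ch25h encodes cholesterol 25-hydroxylase, and the series title places it between interferon signalling and tau pathology. The labels name neither the strain, the tau line, its promoter nor a batch, and the site of the inserted DNA was not analysed here. All 8 Tau+ mice carry the tau transgene, whatever DNA came with it and any alleles linked to it, so these cannot be told apart. The labels do not say that the mice of a group came from separate litters, so a p-value here measures the spread between these samples only. Nuclear RNA was measured, so values describe transcripts in nuclei.

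Long noncoding RNAs are transcripts without a known protein product that often stay in the nucleus, and most have no known function. For Gm43049, Gm32754, 4930590L14Rik and 1700030L20Rik no role is stated here. Unc5c encodes a cell-surface receptor for netrins, the secreted cues that steer growing axons. Netrin draws axons in through DCC and repels them where receptors of the UNC5 family take part.

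The files hold 51270831 to 84870650 unique molecular identifiers (UMIs) per library, and 7601 to 10567 nuclei per library were kept, 136828 in all. Before doublets were removed, nuclei held a median of 3846 to 6508 UMIs per library. Classes of nuclei were named from marker genes, and 27 genes around Gm43049 were kept out of the clustering. Granule neurons of the dentate gyrus (DG) and pyramidal neurons of CA1 and CA3 were present in every library, as a hippocampal label asks. Libraries of replicates 1 and 2 stood apart from replicates 3 and 4 in every group. This was read after the mean of each group was subtracted, with the genes named at the start left out. The first principal component of what remained placed 16 of 16 libraries on the side of that split in all 9 classes tested. It held 21.4 to 32.3% of the variance within groups, so the split was not compared in size with tau or Ch25h genotype. No label explains the split, and each side holds 2 mice of each group. Ch25h UMIs numbered 38 and 94 in the Ch25h+/+ Tau- and Tau+ groups and 75 and 96 in the groups labelled Ch25h-/-. The deleted part of Ch25h is not given in the sources used here, so these 3' counts check nothing about that label. In what follows, Ch25h intact, without Ch25h and loss of Ch25h stand for the labels. Any 2 libraries shared 10 to 40 nuclear barcodes.

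In GRCm38 with GENCODE M21 annotation, 3 of the genes lie side by side. Gm43049 (ENSMUSG00000105777, minus strand) spans chr3:140692038-140760704, Gm32754 (ENSMUSG00000104544, minus strand) spans chr3:140904998-140917459, and 4930590L14Rik (ENSMUSG00000106540, plus strand) spans chr3:140951876-140953247. Gm32754 begins 144 kb and 4930590L14Rik 191 kb past the end of Gm43049. Unc5c (ENSMUSG00000059921, plus strand) spans chr3:141465216-141834924, 705 kb from Gm43049. 1700030L20Rik (ENSMUSG00000099508, minus strand) spans chr3:136435270-136449349, 4.24 Mb away on the other side. Unc5c is annotated as protein coding and the other 4 as lincRNA.

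Gm43049 and 1700030L20Rik share a stretch of transcript, and it is shown because reads from it could be placed on either gene. It is 99 bases long with 98 matches. It is the whole of exon 1 of the longer annotated transcript of Gm43049 (chr3:140760606-140760704, minus strand) and lies in exon 3 of 1700030L20Rik (chr3:136443663-136443761, minus strand). The capital marks the single difference, A74C, counted from 1 at the 5' end of the stretch with the base of Gm43049 first.
Gm43049: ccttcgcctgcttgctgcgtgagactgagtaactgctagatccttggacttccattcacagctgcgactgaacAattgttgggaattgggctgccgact
1700030L20Rik: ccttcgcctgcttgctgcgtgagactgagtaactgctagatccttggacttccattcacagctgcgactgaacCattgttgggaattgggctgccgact
A word of 30 bases from the stretch also occurs in transcripts of 193 other genes of 55450 in the annotation. Of these, 139 are in the files and 51 were tested in some class. In 634 tests of these genes over all classes and both tau contrasts, edgeR's quasi-likelihood test made 1 call. Of all pairs of gene and class, 0.194% were called with Ch25h intact and 0.101% without it. The call was the solute carrier gene Slc16a6 in microglia of Ch25h+/+ mice (log2 change -0.63, SE 0.13, adjusted p = 0.0197), where 1.71% of all genes tested were called. How the authors' counting treated reads of the shared stretch was not tested.

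The kit reads transcripts from their 3' end, so the last 60 bases of the annotated transcripts are shown for the genes whose counts separate the mice. AATAAA, the common signal for polyadenylation, is in capitals where it occurs.
4930590L14Rik: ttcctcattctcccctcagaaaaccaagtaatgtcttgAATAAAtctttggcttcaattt
Gm32754: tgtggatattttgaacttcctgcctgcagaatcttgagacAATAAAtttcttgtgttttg
Gm43049: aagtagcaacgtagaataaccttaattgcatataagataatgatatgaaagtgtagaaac
1700030L20Rik: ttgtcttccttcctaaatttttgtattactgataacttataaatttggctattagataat
These end at chr3:140953188-140953247 (plus strand), chr3:140904998-140905057, chr3:140692038-140692097 and chr3:136435270-136435329 (all minus strand). The signal is followed by 16 bases in 4930590L14Rik and by 14 bases in the longer transcript of Gm32754. The last 60 bases of the annotated transcripts of Gm43049 and 1700030L20Rik do not hold these letters.

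The promoters of Gm32754 and 4930590L14Rik, which appear together in Tau+ mice, are shown from 250 bases before to 50 bases after the start in RefSeq (GRCm38.p6). RefSeq entries matched 4 of the 5 genes, with Gm43049 unmatched. The motifs searched, on both strands, were the TATA box TATAAA, the CCAAT box spelled by its name, the E-box CACGTG, the cAMP response element TGACGTCA and the GC box GGGCGG. Capitals mark TATAAA and CCAAT on either strand, and in Gm32754 a CCAAT overlaps a TATAAA by 1 base.
Gm32754: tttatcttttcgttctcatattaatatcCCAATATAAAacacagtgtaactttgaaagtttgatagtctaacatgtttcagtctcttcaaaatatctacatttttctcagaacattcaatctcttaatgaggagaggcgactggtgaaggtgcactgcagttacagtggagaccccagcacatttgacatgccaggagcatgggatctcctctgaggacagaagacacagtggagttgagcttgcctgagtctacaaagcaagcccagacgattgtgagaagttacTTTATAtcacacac
4930590L14Rik: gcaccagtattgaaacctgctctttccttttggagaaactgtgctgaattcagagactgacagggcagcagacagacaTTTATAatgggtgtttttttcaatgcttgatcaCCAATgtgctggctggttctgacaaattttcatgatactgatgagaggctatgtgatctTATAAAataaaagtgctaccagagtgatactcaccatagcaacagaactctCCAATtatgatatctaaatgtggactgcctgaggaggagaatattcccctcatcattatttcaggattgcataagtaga
They lie at chr3:140917269-140917568 (minus strand) and chr3:140951585-140951884 (plus strand). Over 32851 promoters of the same length, TATAAA occurred in 13.6%, CCAAT in 37.4%, CACGTG in 7.15%, TGACGTCA in 1.79% and GGGCGG in 35.7%. The 1700030L20Rik and Unc5c promoters hold none of the 5 motifs. GC content was 40.7% for Gm32754, 39.7% for 4930590L14Rik, 44.0% for 1700030L20Rik and 68.3% for Unc5c, and the Unc5c promoter holds 24 CpG sites against 3, 0 and 3 in the others. RefSeq and GENCODE place the start 141 bases apart in Gm32754, 41 in 4930590L14Rik and 348 in Unc5c, and at the same base in 1700030L20Rik.

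Gm43049 was the most abundant of the 4 noncoding RNAs by UMIs, with 30759 in Tau+ and 27 in Tau- nuclei. In CA1 pyramidal neurons, its level in CPM, UMIs of the gene per 1000000 UMIs of the class, was 109, 120, 98.0 and 98.2 in the Ch25h+/+ Tau+ mice. It was 122, 113, 98.8 and 103 in the Tau+ mice labelled Ch25h-/-. The 8 Tau- mice ranged from 0 to 0.140. The Tau+ and Tau- libraries were far apart, with every Tau+ library high and every Tau- library at or near 0. In summed counts, the Tau+ level was 1837 times the Tau- level with Ch25h intact (exact 95% counting interval 508 to 15173, from 3335 against 2 UMIs) and 3339 times without it (599 to 131927, from 3835 against 1 UMI). Such intervals and limits cover counting error only, and in a class sum fewer cells and less RNA per cell cannot be told apart.

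Among all 14617 genes tested in inhibitory neurons, for example, 0.0479% were higher in all 8 Tau+ than in all 8 Tau- libraries. The same share was 0.0527% in CA1, 0.065% in CA3, 0.0795% in DG, 0.0791% in other excitatory neurons, 0.0639% in oligodendrocyte precursors (OPCs), 0.233% in astrocytes, 0.1% in oligodendrocytes and 0.973% over all nuclei. Gm43049 was among those genes in each of these 8 classes and over all nuclei. Since the same contrast chose the genes, this count is a description.

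In CA3 pyramidal neurons Gm43049 stood at 95.9 to 121 CPM in the 8 Tau+ mice and at 0 to 0.192 in the Tau- mice. Against the Ch25h+/+ Tau- mice, where no UMI was found, it was at least 655-fold higher, taking 3 counts over the group as the limit for a count of 0. OPCs, the glial precursors, held 62.9 to 82.8 CPM of Gm43049 in Tau+ mice and no UMI in any Tau- mouse, so the level was at least 67.1-fold higher with Ch25h intact and at least 69.5-fold higher without it. OPCs thus carried this RNA at a level within the range of neurons. Inhibitory neurons held 73.9 to 99.9 CPM of Gm43049 in Tau+ mice, other excitatory neurons 68.4 to 93.5 CPM and DG granule neurons 56.4 to 71.3 CPM. Mature glia were lower, with 2.79 to 17.9 CPM in astrocytes, 4.62 to 16 in oligodendrocytes and 0 to 4.92 in microglia. Ependymal cells, which line the ventricles, held 13.9 to 62.5 CPM in Tau+ mice, on 42 UMIs in all.

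No Gm43049 UMI was found in 169 endothelial and 167 mural nuclei of Tau+ mice, which allows shares of nuclei with a UMI of up to 1.78% and 1.80%.

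**Figure D1:**
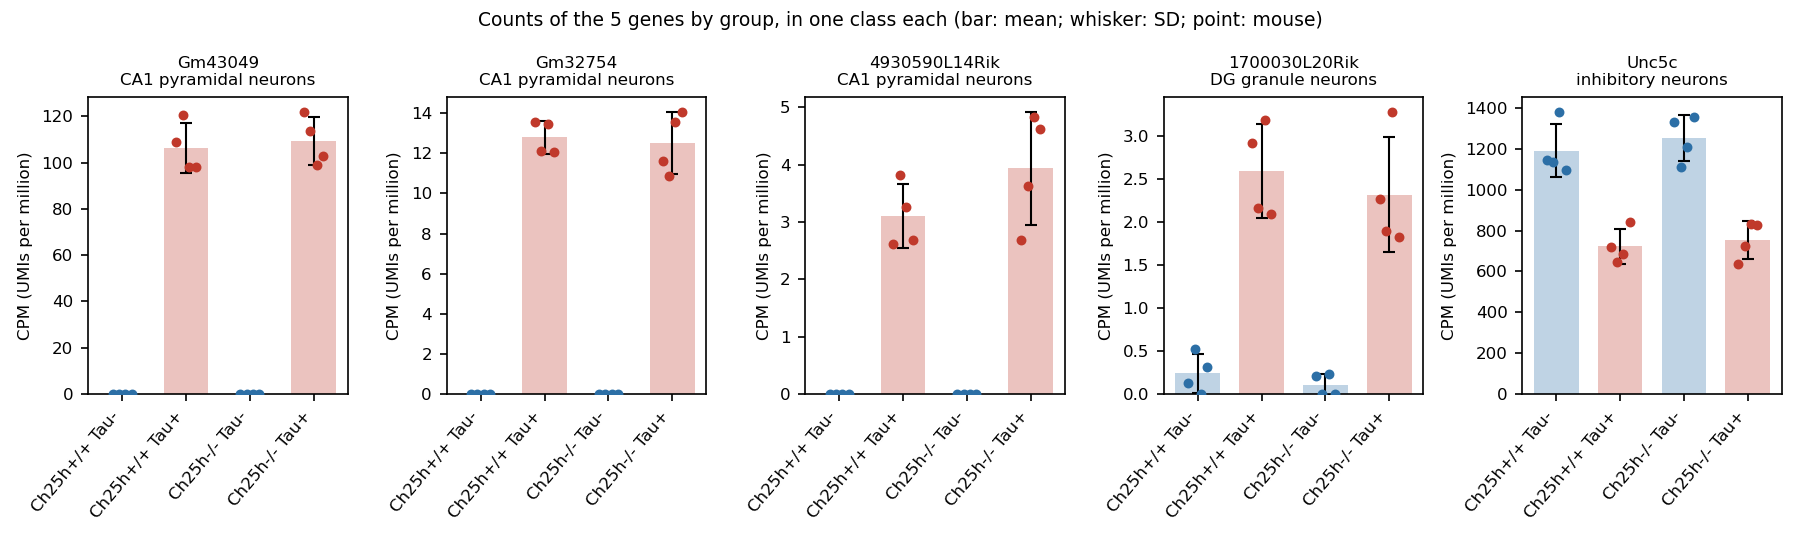
Levels of each gene in 1 class, in CPM, by group: Gm43049, Gm32754 and 4930590L14Rik in CA1 pyramidal neurons, 1700030L20Rik in DG granule neurons and Unc5c in inhibitory neurons. Bars show the mean of 4 mice, whiskers the SD and points single mice, with the noncoding RNAs near 0 in both Tau- groups and Unc5c lower in both Tau+ groups.

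Gm32754 was present in Tau+ mice at a lower level, with 3114 UMIs against 8 in Tau- mice. In CA1 it measured 13.5, 12.1, 13.5 and 12.1 CPM in the Ch25h+/+ Tau+ mice and 11.6, 10.9, 13.5 and 14.1 CPM in the Tau+ mice labelled Ch25h-/-. No UMI was found in CA1 of any Tau- mouse, so Gm32754 was at least 145-fold higher with Ch25h intact and at least 128-fold higher without it. The Tau+ libraries lay close together, at 12.7 ± 1.15 CPM (SD, n = 8). In CA3 it stood at 6.35 to 9.99 CPM in Tau+ mice, and the ratio to Tau- mice was 63.7 (17.3 to 532, from 134 against 2 UMIs) with Ch25h intact. Other excitatory neurons held 6.30 to 10.5 CPM, inhibitory neurons 5.87 to 11.6 CPM and DG granule neurons 3.56 to 7.14 CPM of Gm32754 in Tau+ mice. In OPCs it ranged from 1.27 to 7.68 CPM on 29 UMIs, and no Tau- OPC library held a UMI.

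4930590L14Rik was rarer still, with 815 UMIs in Tau+ nuclei and 1 in Tau- nuclei. In CA1 it measured 2.62, 3.82, 3.27 and 2.69 CPM in the Ch25h+/+ Tau+ mice and 2.68, 3.62, 4.83 and 4.61 CPM in the Tau+ mice labelled Ch25h-/-. The 8 Tau- mice held no UMI of 4930590L14Rik in CA1, which put the Tau+ level at least 36.0-fold higher with Ch25h intact and at least 40.1-fold higher without it. The sets did not overlap in CA1, CA3, DG, inhibitory or other excitatory neurons, where 0.0479 to 0.0795% of all genes tested were higher in this way. In glia it was near the limit of counting, with 5 UMIs in OPCs, 3 in astrocytes, 5 in microglia and 9 in oligodendrocytes over all 8 Tau+ mice.

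1700030L20Rik differed from the other noncoding RNAs in where it was found. Of its 159 UMIs in Tau+ nuclei, 147 were in DG granule neurons, and of its 22 in Tau- nuclei, 12 were. In DG it measured 2.92, 2.16, 3.19 and 2.10 CPM in the Ch25h+/+ Tau+ mice and 2.27, 1.89, 3.28 and 1.83 CPM in the Tau+ mice labelled Ch25h-/-. The Tau- mice were not at 0 throughout: 1700030L20Rik stood at 0.122, 0.519, 0 and 0.315 CPM in Ch25h+/+ mice and at 0.204, 0, 0.232 and 0 CPM in those labelled Ch25h-/-. The sets did not overlap, and 0.0795% of all genes tested in DG were higher in this way. The ratio of Tau+ to Tau- was 12.3 (5.69 to 31.6, from 77 against 7 UMIs) with Ch25h intact and 21.9 (8.93 to 69.4, from 70 against 5 UMIs) without it. In CA1 the gene had 4 UMIs in Tau+ and 4 in Tau- mice, and no UMI was found in OPCs, astrocytes or microglia of any mouse.

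The order of levels over the classes was tested within the 8 Tau+ libraries for the noncoding RNAs and over all 16 libraries for Unc5c. The noncoding RNAs were near 0 in Tau- mice, so the tau difference that chose them follows their Tau+ level in each class. Their order is therefore not independent of the choice, and its p-values describe the spread between libraries alone. Neighbouring classes were compared by an exact two-sided sign-flip permutation test of log2(CPM + 1), with Benjamini-Hochberg adjustment over all 40 pairs. With 8 libraries the smallest p this test can give is 0.00781, and with 16 it is 3.05e-05. Of the 40 pairs 14 passed an adjusted p of 0.05, 8 of 32 for the noncoding RNAs and 6 of 8 for Unc5c. With 1 library left out, 4 to 15 passed, with 4 without replicate 1 or 3 of the Ch25h+/+ Tau+ mice or replicate 1 of the Tau+ mice labelled Ch25h-/-. Gm43049 was highest in CA1 (108 ± 9.95 CPM, SD, n = 8) and CA3 (104 ± 7.77), and these did not differ beyond their spread (exact permutation test, adjusted p = 0.357). CA3 was above inhibitory neurons (86.4 ± 9.29 CPM) in 8 of 8 libraries (exact permutation test, adjusted p = 0.026). Inhibitory neurons, other excitatory neurons (81.8 ± 8.83) and OPCs (74.2 ± 7.64) followed, and neither step between them passed (exact permutation test, adjusted p = 0.456 and 0.156). OPCs were above DG granule neurons (62.0 ± 5.27 CPM) in 8 of 8 libraries (log2 difference 0.25, exact permutation test, adjusted p = 0.026). On the log2(CPM + 1) scale, the widest gap for Gm43049 lay between DG granule neurons and oligodendrocytes (11 ± 4.31 CPM). Its log2 difference was 2.49, in 8 of 8 libraries (exact permutation test, adjusted p = 0.026). The gap from astrocytes to microglia was 2.42, and the 1 added to CPM narrows it at such low levels. Oligodendrocytes and astrocytes (10.5 ± 4.93) did not differ beyond their spread (adjusted p = 0.688, exact permutation test), and astrocytes were above microglia (1.5 ± 1.89) in 8 of 8 libraries (adjusted p = 0.026, exact permutation test).

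Gm32754 and 4930590L14Rik also led in CA1, with a different order below it. CA1 exceeded other excitatory neurons in 8 of 8 libraries for both, by 0.49 log2 for Gm32754 and 0.45 log2 for 4930590L14Rik (exact permutation test, adjusted p = 0.026 for each). For Gm32754, other excitatory (8.78 ± 1.45 CPM, SD, n = 8), inhibitory (8.06 ± 1.92), CA3 (7.57 ± 1.25), DG (5.83 ± 1.17) and OPC (4.54 ± 2.77) levels followed, and no step among them passed. The step from OPCs to astrocytes (1.16 ± 1.04 CPM) passed for Gm32754, with 7 of 8 libraries higher in OPCs (exact permutation test, adjusted p = 0.0446). 4930590L14Rik had no other step that passed. For 1700030L20Rik, DG was above the next class, oligodendrocytes, in 8 of 8 libraries (2.45 ± 0.586 against 0.0931 ± 0.177 CPM; exact permutation test, adjusted p = 0.026). DG was also the only class where this gene passed the filter on low counts and was called for tau, so that step is a description.

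**Figure D2:**
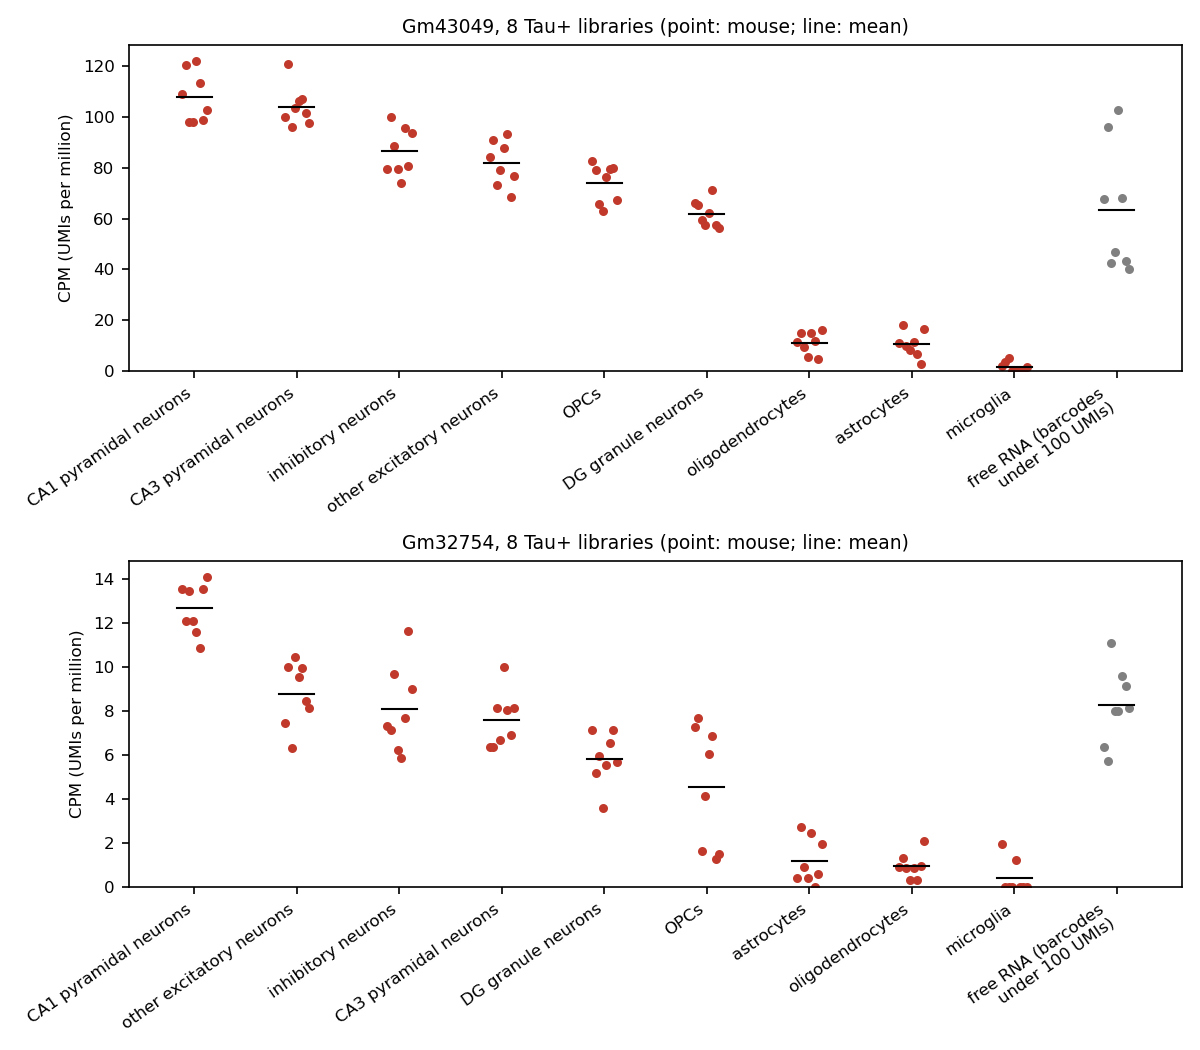
Gm43049 and Gm32754 in the 8 Tau+ libraries, in CPM, by class of nucleus and in barcodes taken as free RNA. Each point is a library and each line the mean, and CA1 is highest for both, with mature glia far below the free RNA for Gm43049.

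Barcodes with under 100 UMIs were read as free RNA. Free RNA of Tau+ libraries held 63.4 ± 25.0 CPM of Gm43049 (SD, n = 8; 40.0 to 103), 8.25 ± 1.72 of Gm32754, 4.03 ± 0.826 of 4930590L14Rik, 0.230 ± 0.268 of 1700030L20Rik and 301 ± 30.6 of Unc5c. Gm43049 was above the free RNA of its own library in 8 of 8 libraries in CA1 and CA3, in 7 in inhibitory neurons, in 6 in other excitatory neurons and OPCs and in 5 in DG. Oligodendrocytes and astrocytes were below it in all 8, at 0.173 and 0.165 of the free RNA level of Gm43049. Ependymal cells stood at 0.614 of that level and above it in 1 of 8 libraries. Gm32754 was above free RNA in 8 of 8 libraries in CA1 alone. In DG Gm32754 stood at 0.706 of its free RNA level and exceeded it in 1 of 8 libraries. 4930590L14Rik was below its mean free RNA level in every neuron class, at 0.872 in CA1 (above it in 2 of 8 libraries), 0.568 in other excitatory neurons, 0.488 in CA3, 0.449 in inhibitory neurons and 0.353 in DG (above it in 0 or 1 of 8). 1700030L20Rik in DG was 10.7 times the free RNA level and above it in 8 of 8 libraries. Unc5c in CA1 stood at 0.903 of its free RNA level and exceeded it in 3 of 8 Tau+ libraries, and in other excitatory neurons at 0.859 and in 2 of 8. Free RNA itself held less Unc5c in Tau+ than in Tau- libraries (375 ± 31.7 CPM in the latter, SD, n = 8). The part of free RNA in the low levels of glia and in the Unc5c difference was not tested. Summed over the Tau+ libraries, Gm43049 had 6.54 UMIs for each Gm32754 UMI in free RNA, 8.58 in CA1, 13.9 in CA3 and 15.8 in OPCs. By library the ratio ran from 7.27 to 10.5 in CA1 and 10.7 to 19.0 in CA3. In OPCs it ran from 10.3 to 63.0, on 29 Gm32754 UMIs. Free RNA held 10 to 47 Gm32754 UMIs per library, and its ratio varied widely. Among the Ch25h+/+ Tau+ mice, it held 168 Gm43049 against 10 Gm32754 UMIs in replicate 2 and 180 against 47 in replicate 3. That range takes in the CA1 range, so the free RNA ratio is not read as lower than that of CA1. The differences in ratio were not tested.

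A UMI of Gm43049 was found in 16216 of 67027 Tau+ nuclei (24.2%) and in 23 of 69801 Tau- nuclei (0.033%). In Tau+ mice the share of nuclei was 54.8% in CA1 (median depth 9152 UMIs), 63.2% in CA3 (13510), 41.9% in inhibitory neurons (8045), 27.4% in DG (6248) and 17.5% in OPCs (3076). Astrocytes gave 2.27% (2554 UMIs), oligodendrocytes 1.65% (1691) and microglia 0.193% (1634). Depth moved with these shares, so each nucleus was also thinned to 500 UMIs. The thinned shares for Gm43049 were 5.44 ± 0.612% in CA1 (SD, n = 8), 5.15 ± 0.421% in CA3, 3.79% in OPCs, 3.03% in DG, 0.502% in astrocytes and 0.0471% in microglia. At equal depth OPCs were thus above DG granule neurons, in contrast to the shares at full depth. The largest count of Gm43049 in 1 nucleus was 16 UMIs, in an inhibitory neuron. Of the 23 Tau- nuclei with a Gm43049 UMI, 2 shared their barcode with a nucleus of a Tau+ library (8.70%, against 1.88% of all Tau- nuclei). Counting Gm43049, Gm32754 and 4930590L14Rik together, 59.9% of CA1 and 66.5% of CA3 nuclei of Tau+ mice held a UMI of at least 1 of them. For Gm32754 alone the share was 11.4% in CA1, for 4930590L14Rik 3.33%, and for 1700030L20Rik in DG 1.41% in Tau+ against 0.0828% in Tau- mice.

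Unc5c, the netrin receptor, was widely present in mice of both kinds, and in Tau+ mice it was lower in several neuron classes. In inhibitory neurons Unc5c measured 718, 646, 684 and 842 CPM in the Ch25h+/+ Tau+ mice and 638, 723, 833 and 828 CPM in the Tau+ mice labelled Ch25h-/-. The Tau- mice stood at 1146, 1134, 1383 and 1098 CPM for Ch25h+/+ and at 1330, 1113, 1207 and 1355 CPM for those labelled Ch25h-/-. The sets did not overlap, and Tau+ mice held 60.7% of the Tau- mean with Ch25h intact and 60.4% without it. On either side of the replicate split, within each Ch25h genotype, the share for Unc5c was 55.7 to 64.8%. Unc5c was the 1 gene in inhibitory neurons lower in all 8 Tau+ than in all 8 Tau- libraries (0.00684% of genes tested).

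In CA1, Unc5c measured 285, 212, 322 and 297 CPM in Ch25h+/+ Tau+ mice and 266, 249, 271 and 273 CPM in the Tau+ mice labelled Ch25h-/-. Tau- mice held 375, 429, 383 and 456 CPM with Ch25h intact and 425, 435, 537 and 533 CPM without it. Here too the sets did not overlap (0.0396% of all genes tested in CA1 were lower in this way), and Tau+ mice held 67.9% and 54.8% of the Tau- mean of Unc5c. CA3, where Unc5c was most abundant, showed a smaller gap, 1455 ± 141 against 1730 ± 144 CPM (SD, n = 8 each), with 6 of 8 Tau+ libraries below every Tau- library. DG granule neurons held 384 ± 43.3 against 482 ± 44.5 CPM of Unc5c, again with 6 of 8 below, and other excitatory neurons 258 ± 33.8 against 356 ± 41.9 CPM with 7 of 8 below. The share of all genes with 6 or 7 of 8 libraries below in this way was not counted. OPCs (1156 ± 94.9 against 1197 ± 69.0 CPM), oligodendrocytes (1197 ± 124 against 1341 ± 287) and astrocytes (290 ± 38.3 against 255 ± 60.3) overlapped. In microglia Unc5c was at 18.4 ± 6.35 against 34 ± 17.2 CPM, under the level of free RNA. Over all nuclei, Unc5c stood at 579 ± 41.3 in Tau+ and 758 ± 37.8 CPM in Tau- mice with no overlap, as 0.0597% of genes did in that direction.

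**Figure D3:**
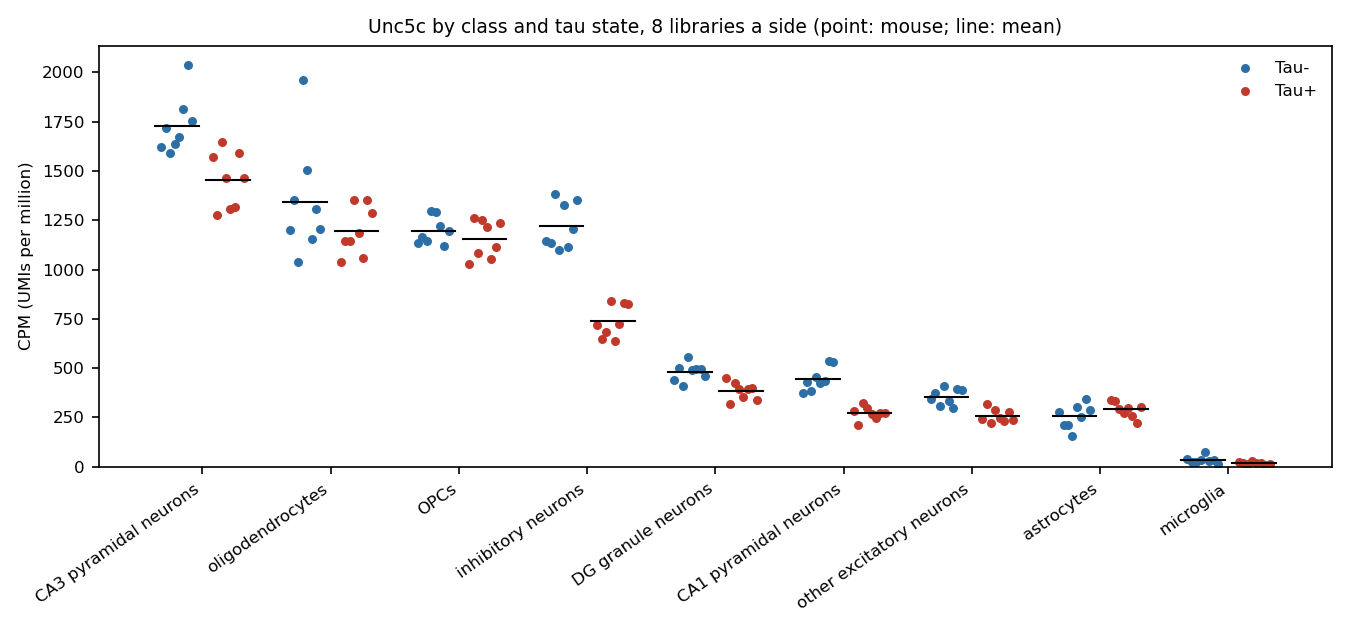
Unc5c in 9 classes, in CPM, with a point for each of 8 Tau- and 8 Tau+ libraries and a line at each mean. Inhibitory and CA1 neurons are the classes where the 2 sets of points do not overlap.

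Thinned to 500 UMIs, the share of nuclei with an Unc5c UMI was 25.4 ± 2.02% in inhibitory neurons of Tau+ and 34.4 ± 1.95% in those of Tau- mice (SD, n = 8), and 11.4 ± 1.46% against 17.5 ± 2.27% in CA1. At full depth the shares were 77.7 against 83.2% and 70.8 against 81.9%. Nuclear shares of Unc5c thus moved the same way as its summed level.

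Inhibitory neurons fell into 4 clusters, and the Unc5c gap varied among them. The cluster led by Vip, Htr3a and Adarb2 held 383 ± 69.1 CPM in Tau+ and 785 ± 60.9 in Tau- mice, 48.8% of the Tau- mean (SD, n = 8). The cluster led by Hapln1, Gm34623 and Sema3c, with the highest Unc5c of all neuron clusters, held 2303 ± 163 against 4583 ± 589 CPM (50.2%), and the one led by Ndnf, Reln and Egfr held 1537 ± 179 against 2911 ± 602 CPM (52.8%). In these 3 the libraries did not overlap, as for 0.0137%, 0.0274% and 0.00684% of genes in the Vip, Hapln1 and Ndnf clusters that were lower in this way. The cluster led by Sst and Crhbp, the largest with 5139 nuclei, held 526 ± 90.2 against 684 ± 34.6 CPM of Unc5c (76.9%), with overlap. The difference between clusters was not tested. The 3 CA1 clusters stood at 62.0, 66.1 and 70.4% of their Tau- means, each without overlap (beside 0.0461%, 0.0132% and 0.0264% of genes lower in this way). A cluster of other excitatory neurons led by Tbpl2 and Wfs1 did not overlap either, at 606 ± 45.1 against 808 ± 76.7 CPM of Unc5c (74.9%, beside 0.0198% of genes). Gm43049 was present in Tau+ mice in all 14 clusters of CA1, CA3, DG, other excitatory and inhibitory neurons. Mean levels ran from 55.1 ± 19.3 CPM in the smallest (413 nuclei, led by Col24a1) to 127 ± 23.7 CPM in a CA1 cluster led by Gm12128. Cajal-Retzius cells, a small neuron class outside these clusters, held 35.8 ± 31.8 CPM in Tau+ mice on 21 UMIs (SD, n = 8). A UMI was found there in 6 of 8 Tau+ libraries and in no Tau- library.

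**Figure D4:**
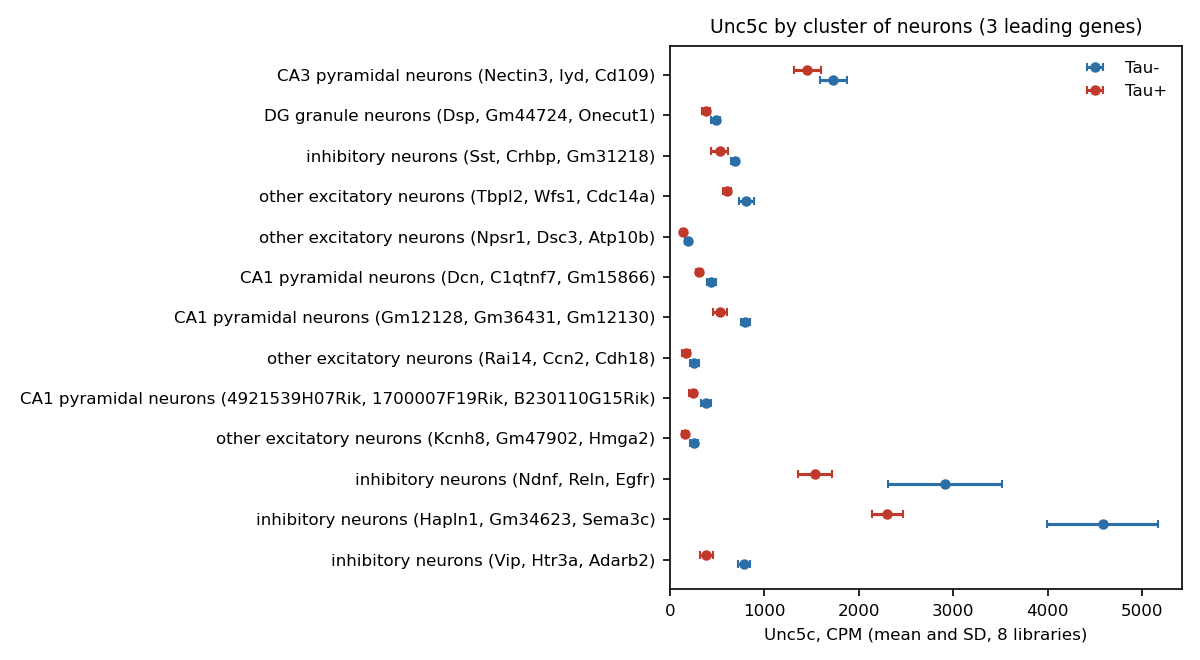
Unc5c in the 13 clusters of neurons with at least 20 nuclei in every library, in CPM, as the mean with SD over 8 Tau- and 8 Tau+ libraries. The inhibitory clusters led by Vip, Hapln1 and Ndnf show the Tau+ mean near 50.2% of the Tau- mean, and the Sst cluster shows 76.9%.

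Across classes, with all 16 libraries, Unc5c was highest in CA3 (1593 ± 198 CPM, SD, n = 16), above oligodendrocytes (1269 ± 226) in 15 of 16 libraries (permutation test, adjusted p = 0.00366). Oligodendrocytes and OPCs (1176 ± 82.9) did not differ beyond their spread (permutation test, adjusted p = 0.12). OPCs were above inhibitory neurons (980 ± 268) in 11 of 16 libraries (permutation test, adjusted p = 0.026). That step rests on the Tau+ libraries, at 1156 ± 94.9 CPM of Unc5c in OPCs and 739 ± 84.4 in inhibitory neurons (SD, n = 8). It is counted among the steps that passed, but it follows from the tau difference that chose Unc5c and is a description. In Tau- mice the means stood in the other order, at 1197 ± 69.0 and 1221 ± 117 CPM. DG (433 ± 66.0), CA1 (359 ± 102), other excitatory neurons (307 ± 62.4) and astrocytes (273 ± 52.1) followed. The steps into DG, CA1 and other excitatory neurons passed for Unc5c (adjusted p = 0.00061, 0.00519 and 0.0407, permutation test), and the step from other excitatory neurons to astrocytes did not (adjusted p = 0.357, permutation test). The steps on either side of CA1 also hold the tau difference that chose Unc5c and are a description. DG and CA1 stood at 384 and 272 CPM in Tau+ mice and at 482 and 447 in Tau- mice. Other excitatory neurons stood at 258 CPM in Tau+ and 356 in Tau- mice. Microglia (26.2 ± 14.9 CPM) were lowest, with 16 of 16 libraries below astrocytes (adjusted p = 0.00061, permutation test). In Tau+ mice alone, astrocytes (290 ± 38.3 CPM, SD, n = 8) stood above CA1 (272 ± 32.7) and other excitatory neurons (258 ± 33.8) for Unc5c. The order holds levels of Tau+ and Tau- mice together, and the large SD in inhibitory neurons includes the difference between them.

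In edgeR's quasi-likelihood fits, 27 of the 45 pairs of gene and class passed the filter on low counts: Gm43049 in 8 classes, Gm32754 in 5, 4930590L14Rik in 4, 1700030L20Rik in 1 and Unc5c in 9. The noncoding RNAs passed through their Tau+ libraries alone, so they had to differ. For Tau+ minus Tau- with Ch25h intact, 18 of the 27 pairs were called at an adjusted p under 0.05, 17 higher and 1 lower, against 0.194% of all 116792 pairs called (0.134% higher and 0.0599% lower). Without Ch25h it was 19 of 27, 17 higher and 2 lower, against 0.101% (0.0676% higher and 0.0334% lower). Those contrasts chose the genes, and nothing is read from these counts. The lower calls were Unc5c in inhibitory neurons in both and in CA1 without Ch25h.

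The background by class is given for the same contrasts, which chose the genes, so nothing is read from it either. With Ch25h intact, every called gene was among the 5 in CA1 (3 genes, 0.0198% of those tested), CA3 (2, 0.0144%), DG (4, 0.0265%), OPCs (1, 0.0106%), inhibitory neurons (3, 0.0205%), oligodendrocytes (1, 0.00836%) and other excitatory neurons (3, 0.0198%). Gm43049 was called in each of these 7 classes. In astrocytes Gm43049 was 1 of 61 called genes (0.474%), and in microglia none of the 148 called (1.71%) was among the 5. Without Ch25h, 4 of 15 called genes in CA1 (0.0989%), 2 of 5 in CA3 (0.0361%), 4 of 15 in DG (0.0994%), 1 of 9 in OPCs (0.0958%), 1 of 3 in astrocytes (0.0233%), 3 of 4 in inhibitory neurons (0.0274%), the 1 in oligodendrocytes (0.00836%), all 3 in other excitatory neurons (0.0198%) and none of 63 in microglia (0.726%) were among the 5.

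Loss of Ch25h was tested, since it did not choose the genes. Among Tau+ mice, 0 of the 27 pairs were called in edgeR's test (0 at an unadjusted p under 0.05, lowest adjusted p = 0.999, and 0 called by DESeq2), with 0.00771% of all pairs called. Gm43049 changed by 0.07 log2 in CA1 (95% interval -0.16 to 0.31), by 0.01 in CA3 (-0.20 to 0.22) and by 0.01 in DG (-0.22 to 0.25). Gm32754 changed by 0.00 log2 in CA1 (-0.28 to 0.28), 4930590L14Rik by 0.36 in CA1 (-0.15 to 0.87) and 1700030L20Rik by -0.17 in DG (-0.92 to 0.58). The interval was narrow for Gm43049 and Gm32754 in CA1 and wide for 1700030L20Rik, which had few counts. Unc5c changed by 0.08 log2 in inhibitory neurons (-0.12 to 0.28) and by -0.04 in CA1 (-0.24 to 0.16).

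Among Tau- mice and for the difference between the 2 tau contrasts, only the 9 Unc5c pairs are read. The other 18 pairs, of noncoding RNAs, had 0 to 12 UMIs in Tau- mice, with none in 8 of them, and so gave no usable test. Of the Unc5c pairs, 0 of 9 were called for Ch25h loss in Tau- mice by edgeR (1 at an unadjusted p under 0.05, lowest adjusted p = 0.93, and 0 called by DESeq2), with 0.00342% of all pairs called. The pair was Unc5c in astrocytes, at 0.47 log2 (SE 0.14), which failed the edgeR adjustment (adjusted p = 1). The difference between the 2 tau contrasts gave 0 calls of 9 in edgeR's test (1 at an unadjusted p under 0.05, lowest adjusted p = 0.886, and 0 called by DESeq2), against 0.0% of all pairs. For Unc5c that difference was -0.24 log2 in CA1 (-0.52 to 0.05; edgeR adjusted p = 0.886) and 0.02 in inhibitory neurons (-0.27 to 0.30). The 1 at an unadjusted p under 0.05 was Unc5c in astrocytes, at -0.64 log2 (SE 0.20, -1.02 to -0.26; edgeR adjusted p = 1). There the tau contrast of Unc5c was 0.48 log2 with Ch25h intact and -0.16 without it.

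The stretch of chromosome 3 around Gm43049 was read for other differences. Of 192 genes within 10 Mb in the files, 116 were tested in some class and 7 were called in a tau contrast, the 5 themselves and 2 in microglia. Those 2 were 1 of 45 other window genes tested in each microglia contrast, where 1.71% and 0.726% of all genes were called. Gbp7, an interferon-induced guanylate-binding protein gene, was lower in Tau+ microglia with Ch25h intact (log2 change -1.43, SE 0.37, edgeR adjusted p = 0.0453). Gm31243 was lower in Tau+ microglia without Ch25h (-1.33, SE 0.29, edgeR adjusted p = 0.0497). Under other settings the count rose to 16 with DESeq2 and to 15 without the filter on low counts, with a term for the replicate split, or without replicate 3 of either Tau+ group. The shares of all genes called under these settings are not given, so nothing about this stretch is read from the rise. Among the added genes was Tacr3, a tachykinin receptor gene, lower in CA1 of Tau+ mice without Ch25h (DESeq2 log2 change -1.68, adjusted p = 0.000979, against an edgeR adjusted p of 0.0501). With doublets kept, no filter, a term for the replicate split or at least 1000 UMIs per nucleus, edgeR also called Tacr3 (adjusted p = 0.0272 to 0.0497). DESeq2 also called guanylate-binding protein genes higher in Tau+ astrocytes, Gbp2, Gbp2b and Gbp3 in both contrasts and Gbp5 and Gbp7 without Ch25h (Gbp7 log2 change 1.60, adjusted p = 0.0369). That sign is opposite to the Gbp7 call in microglia with Ch25h intact, and the difference between the classes was not tested. In edgeR's test no window gene other than the 5 was called in astrocytes (lowest adjusted p = 0.0971). The share of all genes that DESeq2 called there is not given, so no pattern of a gene family is read from its calls. In turn, neither call of the pair was made when replicate 2 of the Ch25h+/+ Tau+ mice, replicate 1, 2 or 4 of the Ch25h+/+ Tau- mice, or replicate 3 or 4 of the Tau- mice labelled Ch25h-/- was left out, with 5 genes then called. Gbp7 belongs to a family of close copies among which reads could be split. Within 2 Mb, 17 of 22 genes were tested. Genes of the window other than the 5 had a median size of change of 0.113 to 0.244 log2 over classes, beside 0.111 to 0.222 log2 for all genes. In some classes they were further apart, with 0.184 beside 0.116 log2 in inhibitory neurons without Ch25h and 0.232 beside 0.15 log2 in oligodendrocytes with Ch25h intact. The signed median of these other genes was below 0 in every class and both contrasts, from -0.08 to -0.00 log2, beside -0.01 to 0.01 log2 for all genes.

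**Figure D5:**
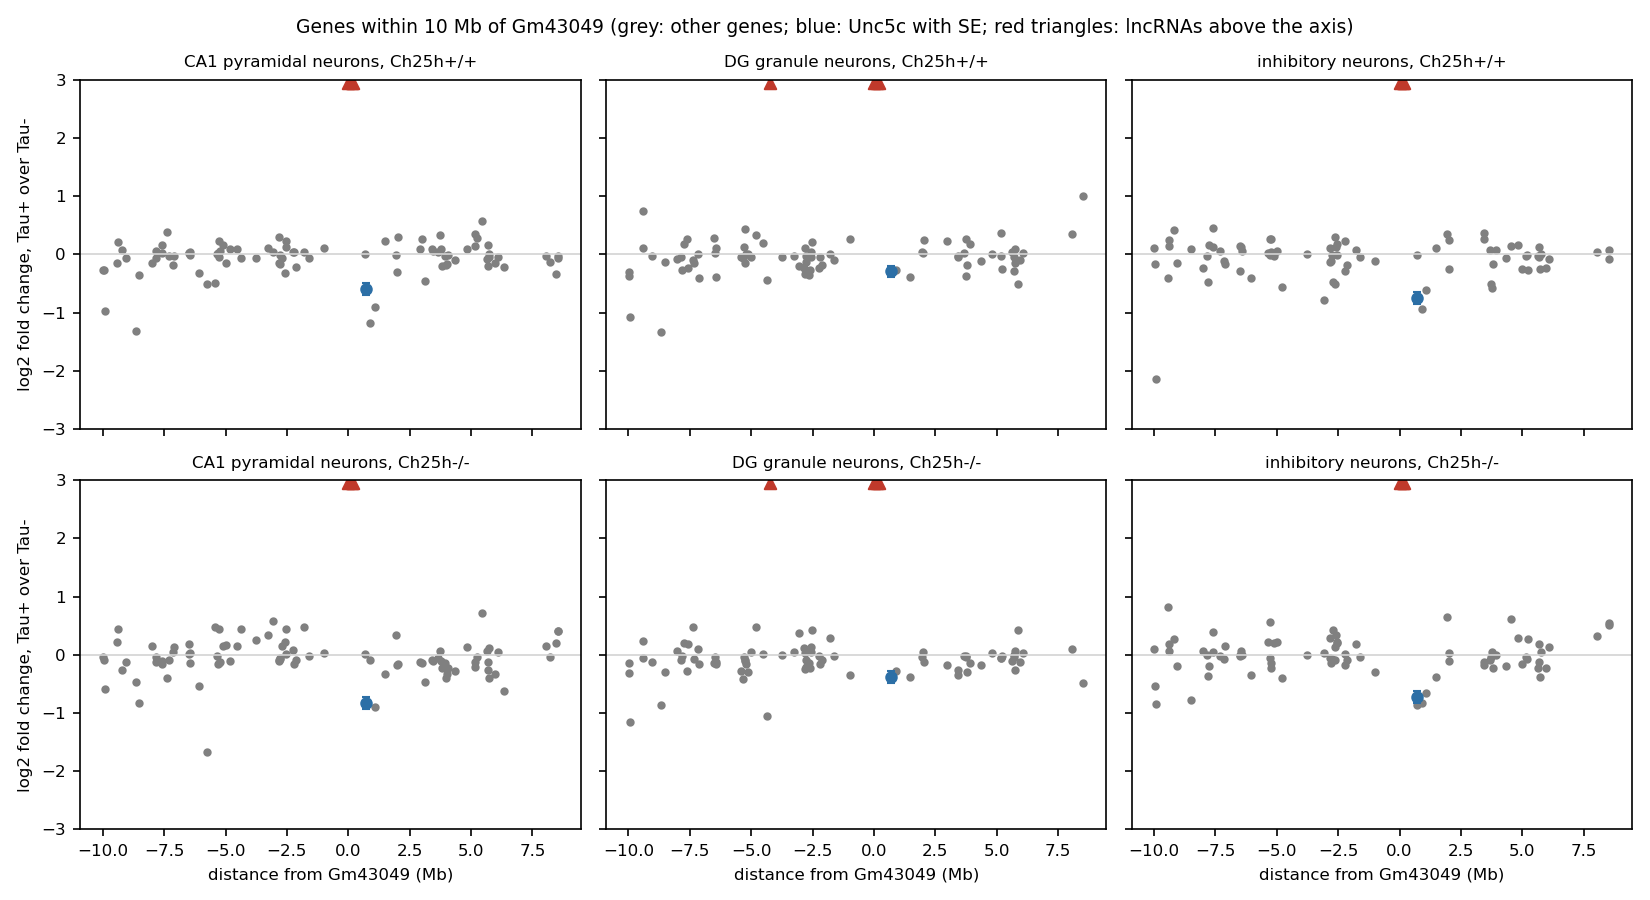
Log2 change, Tau+ minus Tau-, against distance from Gm43049 in Mb for genes tested in CA1, DG and inhibitory neurons, by Ch25h genotype. Grey points are other genes of the window, the blue point with its SE is Unc5c, and red triangles mark noncoding RNAs above the top of the axis at 3.

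Outside the 5, the nearest annotated neighbours gave no call in edgeR's main fits. Ppp3ca, a catalytic subunit gene of calcineurin and 221 kb past 1700030L20Rik, ranged from -0.19 to 0.26 log2 over 9 classes. Bmpr1b, a receptor gene for bone morphogenetic proteins that ends 2.21 kb from Unc5c, was tested in 5 classes, and in CA1 without Ch25h it was at -0.90 log2 (edgeR adjusted p = 0.0501). DESeq2 called Bmpr1b there (-0.89 log2, adjusted p = 0.0384), as did edgeR with a term for the replicate split (-0.93 log2, adjusted p = 0.0415). Pdha2, between 4930590L14Rik and Unc5c, had 0 UMIs. Gm15688 and Gm15689 are annotated antisense to Unc5c and were not called. Whether the counting used strand is not stated in the sources used here, so reads of Unc5c and of these antisense genes may not be told apart. The neighbouring pseudogenes Gm31211, Gm6214, Gm43276 and Gm43402 were not analysed here.

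The netrin pathway was read from a list of 16 ligand, receptor and co-receptor genes, of which 8 to 16 were tested in a class. Unc5c is set aside here, since these contrasts chose it. The 15 others gave 0 calls in 214 tests of the tau contrasts in edgeR's test (6 higher and 8 lower at an unadjusted p under 0.05). DESeq2 made 3 calls, of Ntng1, Unc5b and Unc5d in CA1. The shares of all genes called by DESeq2, or at an unadjusted p under 0.05, are not given, so nothing is read from these counts. The median of the list without Unc5c was -0.03 and -0.04 log2 in inhibitory neurons with and without Ch25h, and -0.03 and -0.21 in CA1. All genes in these classes had medians of -0.01 to 0.00. In microglia, where 7 of the list other than Unc5c were tested, their median was -0.34 and -0.43, with all genes at 0.00 and -0.00. Levels of listed genes were low in microglia, such as Dcc at 34.2 ± 12.2 against 39.3 ± 16.8 CPM (Tau+ against Tau-, SD, n = 8). Unc5a stood there at 8.87 ± 4.11 against 9.00 ± 6.33 CPM. The shift of these medians was not tested. Of the other UNC5 receptors, Unc5a was highest in DG (68.1 ± 12.7 against 70.4 ± 13.3 CPM, Tau+ against Tau-, SD, n = 8). Unc5b was highest in oligodendrocytes, at 107 ± 9.61 against 123 ± 27.9 CPM. Unc5d was highest in inhibitory neurons, at 1457 ± 187 against 1519 ± 231 CPM, and it was not called there. In CA1 Unc5d was variable, at 71.9 ± 61.5 against 235 ± 151 CPM, and its change without Ch25h, -3.06 log2, was not called (edgeR adjusted p = 0.119). The attractive receptor Dcc was highest in CA3 (2204 ± 136 against 2255 ± 270 CPM), and the ligand Ntn1 was highest in OPCs (236 ± 19.3 against 230 ± 27.5 CPM).

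Likeness to other genes was read as Pearson's r of log2(CPM + 1) over all nuclei across the 16 libraries, among 16750 genes with a mean of at least 1 CPM. Gm43049 followed Gm32754 (r = 0.999), 4930590L14Rik (0.99) and 1700030L20Rik (0.866), and ran opposite to Unc5c (-0.925). The 5 were chosen for their gap between 8 Tau+ and 8 Tau- libraries, which by itself puts r near 1 or -1, so these values are a description. Outside the 5, the genes most like Gm43049 were Rassf2 (0.938), Nkx2-2 (0.924) and 2810410L24Rik (0.923), and for Gm32754 they were the same 3 (0.940, 0.926 and 0.917). For 4930590L14Rik they were Rassf2 (0.935), Nkx2-2 (0.916) and Tmem125 (0.909), for 1700030L20Rik Tmem125 (0.885), Styxl1 (0.876) and Rabep2 (0.875), and for Unc5c Gm19938 (0.902), Crym (0.881) and Itgbl1 (0.841). These values share libraries and class makeup. Oligodendrocytes made up a median of 20.6% of nuclei in Tau+ and 14.1% in Tau- libraries, and DG granule neurons 12.3% and 17.5%. The part of class makeup in these correlations was not tested.

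Among the 8 Tau+ libraries the replicate split moved with Gm43049 in some classes. In CA1 replicates 1 and 2 averaged 116 CPM and replicates 3 and 4 averaged 99.5 CPM, with no overlap, as 6.55% of all genes tested there did in that direction. The same held for Gm43049 in DG (66.2 against 57.7 CPM, beside 6.85% of genes) and in other excitatory neurons (89.1 against 74.4 CPM, beside 5.9%). In the other 5 classes examined the libraries overlapped for Gm43049, with 87.2 against 85.7 CPM in inhibitory neurons. 4930590L14Rik in inhibitory neurons went the other way, at 1.24 against 2.38 CPM, beside 3.97% of genes. In free RNA the same gap was wider for Gm43049, at 67.7 to 103 CPM in replicates 1 and 2 and 40.0 to 46.7 CPM in replicates 3 and 4, so the ratios to free RNA above differ between the sides. The limit of 100 UMIs for free RNA also fell differently among the barcodes of the sides, as given above. The part of the split in these differences was not tested, and it is small beside the difference from Tau- mice.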

How the data were processed

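Hippocampal nuclei went through the 10x Genomics 3' chemistry v3.1, per the labels' protocols. The authors' deposited matrices hold raw UMI counts per gene and barcode for all barcodes. The matrix headers name Cell Ranger 4 and the submitters' processing notes name Cell Ranger 3.1.0, with build mm10. Whether intronic reads were counted is not given in the sources used here.

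Barcodes with at least 500 UMIs, at least 300 genes and at most 5% mitochondrial UMIs were kept as nuclei. Scrublet scored doublets, and the highest-scoring 0.8% per 1000 nuclei of a library were removed (11045 of 147873). Leiden clustering (scanpy 1.11.5, resolution 1, 20 neighbours, 50 components, 3000 variable genes) gave 56 clusters. A cluster was named where at least 3 markers of a class were 2-fold or more above the other nuclei, and 29 stayed unnamed (16 with over 50% doublets, 13 with too few markers). Unnamed nuclei count in values over all nuclei alone.

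Counts were summed per library and class, and CPM is per 1000000 UMIs of that sum. Tests were run in the 9 classes that had 20 or more nuclei in each library, using edgeR 4.0.16 (R 4.3.3; quasi-likelihood, TMM, filterByExpr), with Benjamini-Hochberg adjustment over all genes tested in a class, per contrast. The script was tested on simulated data. DESeq2 1.42.0 was an alternative, with other filters on counts and nuclei, kept doublets, a term for the replicate split and each library left out. Of the identifiers, 32158 of 32285 are in GENCODE M21. The genes named were the 5, their annotated neighbours, called genes within 10 Mb of Gm43049, UNC5 receptors and called genes of a netrin list, and the 3 genes most like each. The netrin levels of Dcc and Ntn1 were added to that. The genes and lists were chosen with earlier results of these data known. Replicate numbers follow the order of deposit.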

Additional observations from a re-analysis of the deposited data

Results flagged for a closer look

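Over 85 sets of 4 libraries (a gene in a class and group), 3 held 1 library far from the others by Dixon's criterion, and chance gives about 1 in 20. Gm43049 in inhibitory neurons measured 0.768 CPM (4 UMIs) in replicate 1 of the Tau- mice labelled Ch25h-/-, where the other 3 mice had 0. Unc5c in DG granule neurons measured 461 CPM in replicate 4 of the Tau- mice labelled Ch25h-/-, below the 492 to 497 CPM of the others. Unc5c in inhibitory neurons measured 1383 CPM in replicate 3 of the Ch25h+/+ Tau- mice, above the 1098 to 1146 CPM of the others. Of the 27 Gm43049 UMIs in Tau- nuclei of all classes, 11 came from replicate 1 of the Tau- mice labelled Ch25h-/-.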

How the results depend on the processing

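The count of pairs called for Ch25h loss among Tau+ mice was 0 of the 5 genes in every alternative run, as was that of Unc5c for Ch25h loss among Tau- mice and for the difference of the tau contrasts. The noncoding RNAs had too few Tau- UMIs for the latter 2. For the tau contrasts the 18 and 19 pairs called became 18 to 21 and 18 to 22 under other tests, filters and covariates, and 16 to 19 and 17 to 19 with 1 library left out. The 7 genes called within 10 Mb of Gm43049 became 16 with DESeq2, 15 without the filter on low counts and 15 with a term for the replicate split, and the cause was not tested. The shares of all genes called under these settings are not given, so nothing is read from the rise. With 1 library left out there were 5 to 15 (15 without replicate 3 of the Ch25h+/+ Tau+ mice, and 15 without replicate 3 of the Tau+ mice labelled Ch25h-/-), and within 2 Mb, which leaves out 1700030L20Rik, 5 (Gbp7 and 4 of the 5). Among the genes added was Bmpr1b, which DESeq2 called in CA1 without Ch25h (log2 change -0.89, adjusted p = 0.0384). It was also called there by edgeR with a term for the replicate split (log2 change -0.93, adjusted p = 0.0415). The 14 neighbouring class pairs that passed became 4 to 15 with 1 library left out. There were 4 without replicate 1 or replicate 3 of the Ch25h+/+ Tau+ mice and without replicate 1 of the Tau+ mice labelled Ch25h-/-, and fewer samples raise the smallest p the exact test can give. Thinned to 1000 UMIs, the share of CA3 nuclei of Tau+ mice with a Gm43049 UMI was 9.88% instead of 5.15%. No called value changed sign. Some uncalled log2 changes did with 1 library left out, such as Unc5c in microglia for Ch25h loss in Tau- mice (0.31, then -0.26 to 0.57). No paired analysis was possible because the labels give no replicate numbers. Depth limits 4930590L14Rik and 1700030L20Rik, with 815 and 159 UMIs in Tau+ nuclei. The alternatives of the class order with each library left out, and 4 of those for the chromosome 3 window, were chosen after seeing the data.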
